A study of Mus musculus with 3 samples.

Results

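The HOX genes of normal mouse thymocytes were examined in 3 wild-type mice. HOX genes were taken as every gene whose probe set carried a single platform symbol of the form Hoxa, Hoxb, Hoxc or Hoxd followed by a number. This gave 37 HOX genes out of 19938 named genes on the array, and each of the 37 was read by 1 probe set. Cluster A contributed 10 genes and clusters B, C and D contributed 9 each. Hoxb8 shared its probe set with Hoxb7 and so was not among them. Total RNA from thymocytes of mice numbered 92, 103 and 106, all of genotype wt on a background mixed from FVB and C57BL6, was hybridised to Affymetrix MoGene 1.0 ST arrays. They served as normal counterparts to whole stage 3 invasive lymphomas. The tumours are not analysed here, which leaves a single group of samples and no contrast between conditions. Each sample supplied 0.3 µg of RNA with an integrity number of 3, per the labels, which also enter T cell lymphoma as disease state although title and genotype read wild type. No age or sex is given, and the samples are whole thymocyte preparations in which fewer cells of a type and less RNA per cell cannot be told apart.

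HOX genes encode homeodomain transcription factors that set position along the body axis of the embryo. They lie in 4 clusters, A to D, in which genes of the same number across clusters are paralogs, and genes at the low-numbered end are used nearer the head than those at the high-numbered end. In blood formation, genes of the A and B clusters are transcribed in stem and progenitor cells and are switched off as cells mature, with MLL proteins keeping them active and Polycomb proteins keeping them silent. HOXA genes kept active together with the cofactor MEIS1 are a recurrent feature of leukaemias of the T cell and myeloid lineages.

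Levels are on the log2 scale of the deposited table. Because probes differ in affinity, the level of a probe set was called against background genes on the same array, mainly olfactory receptor genes, genes of the smell-sensing cells of the nose. Here a gene counts as above background if its level passed the 95th percentile of 1027 receptor genes on all 3 arrays. The thresholds were 6.01, 6.17 and 6.06 for mice 92, 103 and 106, and the receptor medians were 4.13, 4.28 and 4.16. Of all 19938 named genes, 60.3% were above background. All 10 measured thymocyte markers, among them Rag1, Cd3g and Cd8a, were above background on every array. The arrays differed in other cells' genes. Of 12 neutrophil markers 7 were above background on all arrays, with medians of 6.30, 7.43 and 7.23 for mice 92, 103 and 106. Apart from cell markers, Xist, the RNA of the inactive X chromosome of female cells, read 5.30, 11.85 and 11.67. Mouse 92 was lowest for both, so differences of sex and of cell content cannot be told apart here. In limma, with a Benjamini-Hochberg adjusted p under 0.05, the neutrophil genes Ngp, Lcn2, S100a8, S100a9 and Ltf, the B cell gene Cr2 and the erythroid gene Alas2 varied between mice. With only 3 arrays, precision is limited throughout.

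Most HOX genes were not above background in these thymocytes. Of the 37 genes, 9 were above it on all 3 arrays (24.3%, against the 60.3% of all named genes), 5 on some arrays and 23 on none. The 9 were Hoxa4, Hoxa6, Hoxa7, Hoxb1, Hoxb3, Hoxb7, Hoxb9, Hoxc9 and Hoxd11, and none of them stood far above the threshold. Mean levels of the 37 ran from 4.65 to 7.47, with a median of 5.72. The medians for mice 92, 103 and 106 were 5.63, 5.88 and 5.71. At the 99th percentile of receptor genes, with thresholds of 6.75, 7.03 and 6.87, only Hoxa4 and Hoxb1 were above background, 2 of 37 where 46.2% of all named genes were. Against genes of hair, cornified envelope and lens in place of receptors, with thresholds of 7.92, 8.13 and 8.06, the count was 0, beside 31.7% of all named genes.

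**Figure D1:**
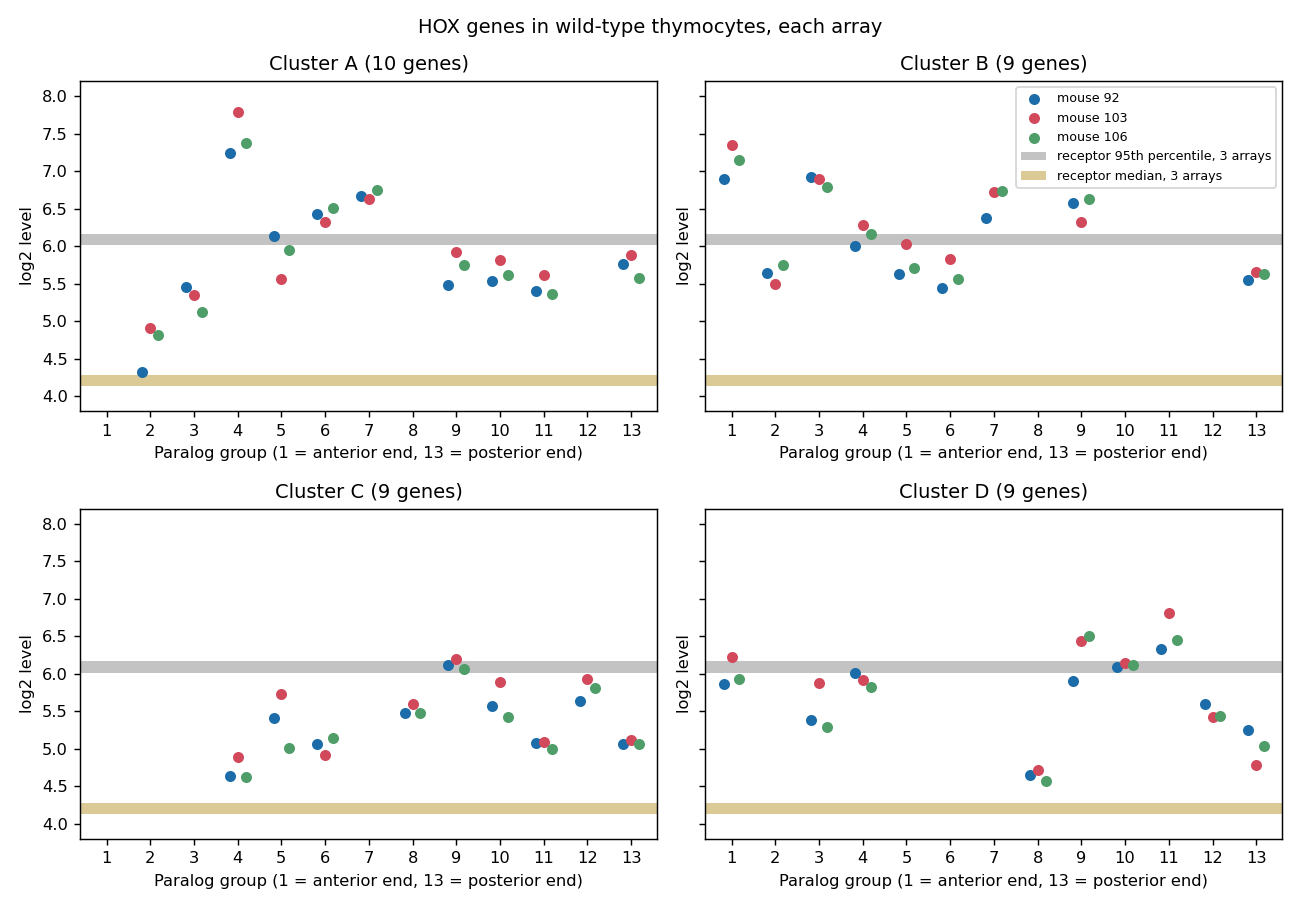
Log2 level of each HOX gene on each array (vertical axis) by paralog group (horizontal axis), 1 panel per cluster; each point is 1 mouse, the grey band spans the receptor 95th percentiles of the 3 arrays (6.01 to 6.17) and the tan band their medians (4.13 to 4.28). The points of Hoxa4 and Hoxb1 lie highest, most of cluster C lies below the grey band, and no point lies below the median of its own array.

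Cluster B held the largest share of genes above background, 4 of 9, followed by cluster A with 3 of 10. Over all named genes the share was 60.3%, to be read beside each count below at the main threshold. Clusters C and D had 1 of 9 each. The count for cluster D was 2 without mouse 92 or without mouse 103, beside 61.2% of all named genes each time. At the 90th percentile clusters D and B had 5 each, beside 68.1% of all named genes. With so few genes a cluster, these are counts and no test was made between clusters. By position, 2 of 7 genes of paralog groups 1 to 3, 4 of 14 of groups 4 to 8 and 3 of 16 of groups 9 to 13 were above background. Within cluster A all 3 lay in the central stretch, where 3 of 4 genes of groups 4 to 8 passed, while 0 of 2 anterior and 0 of 4 posterior genes did. Paralog group 7 was the one group in which every measured gene passed, with 2 of 2, though Hoxa7 and Hoxb7 both fell short at the 99th percentile. Groups 2, 5, 8, 10, 12 and 13 had no gene above background on all arrays, and the 4 genes of group 13, which act in the limb tips, tail and urogenital tract, were below it on every array.

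In cluster A, Hoxa4 (probe set 10544763), a patterning gene of the neck vertebrae, read 7.24, 7.79 and 7.37 in mice 92, 103 and 106 (mean 7.47 ± 0.29, SD, n = 3). It was highest in mouse 103, exceeded the threshold by at least 1.23 on each array, and lay above 99.6% of receptor genes in mice 92 and 106. Hoxa6 (10544774), a gene of the central cluster, read 6.43, 6.32 and 6.51 (mean 6.42 ± 0.09, SD, n = 3), which was 0.16 above the threshold on the closest array. Hoxa7 (10544779), a target that MLL keeps active in blood progenitors, read 6.67, 6.62 and 6.75 (mean 6.68 ± 0.07, SD, n = 3). Hoxa7 was among the steadiest of the 9, with 1.10-fold between its highest and lowest mouse. Hoxa5, which restrains erythroid in favour of myeloid differentiation, read 6.13, 5.56 and 5.95 and passed in mouse 92 alone. Its neighbours on either side of it, Hoxa4 and Hoxa6, passed in every mouse.

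Posterior genes of cluster A did not pass. Hoxa9, required for normal numbers of lymphoid progenitors, read 5.48, 5.92 and 5.75 (mean 5.72 ± 0.22, SD, n = 3) and was below the threshold in each mouse. Receptor genes at or below it made up 87.9%, 92.3% and 91.3%. Hoxa10, another gene of blood progenitors, read 5.53, 5.81 and 5.62 (mean 5.65 ± 0.14, SD, n = 3). Hoxa13, a digit patterning gene, read 5.76, 5.88 and 5.57.

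Hoxa3, which is needed in the embryo to form the thymus itself, read 5.45, 5.34 and 5.13 (mean 5.31 ± 0.17, SD, n = 3), below the threshold in each mouse. Genes of thymic epithelium, where HOXA3 acts, passed in 9 of 12 cases in the same arrays (beside 60.3% of all named genes), with list medians of 6.71, 6.94 and 6.56. At the 99th percentile 4 of the 12 passed, beside 46.2%. With hair, cornified envelope and lens genes as background 2 did, beside 31.7%. The genes short of the main threshold were Foxn1, at 5.44, 5.74 and 5.77, and Krt5 and Krt14, which passed on 1 array each. Hoxa2, of the second pharyngeal arch, read 4.33, 4.90 and 4.82, lowest in mouse 92. Hoxa11, of the forearm, kidney and uterus, was likewise below the threshold on every array, at 5.40, 5.62 and 5.36.

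In cluster B, Hoxb1 (10380665), the gene of the fourth hindbrain segment, read 6.90, 7.35 and 7.15 in mice 92, 103 and 106 (mean 7.13 ± 0.23, SD, n = 3). It cleared the threshold by at least 0.88 and the 99th percentile of receptor genes on every array. Hoxb3 (10380654), a hindbrain and pharyngeal gene, read 6.92, 6.90 and 6.79 (mean 6.87 ± 0.07, SD, n = 3). Hoxb7 (10380634) read 6.38, 6.72 and 6.73 (mean 6.61 ± 0.20, SD, n = 3), lowest in mouse 92. Hoxb9 (10380622), a gene of the thoracic skeleton and mammary gland, read 6.58, 6.32 and 6.62 (mean 6.51 ± 0.16, SD, n = 3), lowest in mouse 103. The probe set shared by Hoxb8 and Hoxb7 (10380629) read 4.53, 4.50 and 4.83, so that it was not above background on any array although the probe set of Hoxb7 alone was.

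Hoxb4, used to expand blood stem cells, stood at the threshold. It read 6.003, 6.28 and 6.16 (mean 6.15 ± 0.14, SD, n = 3), passing in mice 103 and 106 and missing it in mouse 92 by 0.01. Hoxb5 read 5.63, 6.03 and 5.71 and passed in none. Hoxb2, Hoxb6 and Hoxb13, the last a prostate gene, were below the threshold on every array. The 4 genes of the cluster that passed nowhere had levels between 5.45 and 6.03.

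The start region of Hoxb1 and that of Hoxa7 are shown because both genes were above background in every mouse and because HOX proteins bind DNA with PBX partners, whose genes were measured here. Sequences are from RefSeq on build GRCm38.p6 and run 5′ to 3′ on the strand of the gene up to its first annotated start. Capitals mark the letters TGATNNAT, a form of the site of PBX and HOX dimers, searched on both strands. Other forms of that site were not searched, so the matches are not a count of all such sites. The Hoxb1 window is chr11:96365508-96365745 on the plus strand and the Hoxa7 window is chr6:52218574-52218823 on the minus strand.
Hoxb1: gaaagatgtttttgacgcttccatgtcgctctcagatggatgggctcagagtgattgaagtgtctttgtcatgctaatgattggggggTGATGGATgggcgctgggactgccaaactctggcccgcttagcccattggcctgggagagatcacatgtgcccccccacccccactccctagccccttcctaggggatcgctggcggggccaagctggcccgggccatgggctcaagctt
Hoxa7: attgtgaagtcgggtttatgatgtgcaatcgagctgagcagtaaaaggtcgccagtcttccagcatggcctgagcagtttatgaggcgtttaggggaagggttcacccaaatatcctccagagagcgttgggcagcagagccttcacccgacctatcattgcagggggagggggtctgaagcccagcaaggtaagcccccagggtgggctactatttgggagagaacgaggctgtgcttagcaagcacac

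The Hoxb1 window held 1 such match, TGATGGAT, in a gene whose protein is known to act on its own control region together with PBX. The Hoxa7 window held none. Over windows of 250 bases the motif was found in 4 of 22 HOX genes with a promoter entry, Hoxb8 included, and in 8.81% of all 27025 genes with one. Of the 4 HOX genes above background that had an entry, 2 held it. The letters TGACAG, the core of MEIS and PKNOX sites, searched on both strands and able to share bases with TGATNNAT, were found in 2 of the 22 and in 0 of those 4, against 17.95% of all genes. A match is a description of letters, and nothing here measured binding.

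In cluster C, Hoxc9 (10427286), a gene of thoracic motor neurons, was the only one above background, and only just. It read 6.11, 6.19 and 6.07 (mean 6.13 ± 0.06, SD, n = 3) and exceeded the threshold by 0.01 on the closest array. Hoxc12, a gene of the posterior cluster, read 5.64, 5.92 and 5.81, below the threshold throughout. The 8 genes of cluster C that passed nowhere, Hoxc12 among them, had levels between 4.63 and 5.92. They include Hoxc4, which acts in activated B cells, at 4.64, 4.89 and 4.63, and Hoxc13, a hair gene, at 5.06, 5.12 and 5.07. Hoxc5 had the widest spread of all 37 genes, with 5.42, 5.73 and 5.004 in mice 92, 103 and 106, a range of 1.65-fold below the threshold.

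In cluster D, Hoxd11 (10472953), a gene of the forearm and kidney, was above background with 6.33, 6.81 and 6.45 (mean 6.53 ± 0.25, SD, n = 3). It was highest in mouse 103 and cleared the threshold by 0.32 on the closest array. Hoxd9 read 5.91, 6.44 and 6.50 (mean 6.28 ± 0.33, SD, n = 3) and passed in mice 103 and 106. Hoxd10, a limb and motor neuron gene, read 6.09, 6.14 and 6.11 (mean 6.11 ± 0.02, SD, n = 3). It passed in mice 92 and 106 and missed the threshold in mouse 103 by 0.03. Hoxd1 read 5.87, 6.22 and 5.93 and passed in mouse 103 only. Hoxd4 read 6.004, 5.91 and 5.82 and passed in none, while Hoxd8, at 4.65, 4.72 and 4.57, was far below it. The digit gene Hoxd13 read 5.26, 4.79 and 5.04.

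Although most HOX genes fell short of the threshold, all 37 exceeded the receptor median on every array, as did 89.8% of all named genes. The HOX median lay 1.503, 1.60 and 1.55 above the receptor median in mice 92, 103 and 106. The 23 genes above background nowhere stood over 56.3% to 94.8% of the receptor genes of their array. Because the threshold is set by the receptor genes themselves, few of them can pass it, and 45 of the 1027 (4.38%) did on every array. Families of other specialised tissues passed in part, beside 24.3% of HOX genes: 12 of 44 keratin-associated protein genes (27.3%), 13 of 52 keratin genes (25.0%) and 7 of 18 crystallin genes (38.9%). Fewer passed among cornified envelope genes (4 of 32), beta-defensin genes (5 of 40), taste receptor genes (1 of 34) and vomeronasal and trace amine receptor genes (1 of 182). These families were chosen after levels had been seen, and whether probe composition has a part in the differences between families was not tested. Other homeobox genes passed in 46 of 74 cases (62.2%, beside 60.3% of all named genes). At the 99th percentile 15 of the 74 passed, beside 46.2% of all named genes, and with hair, cornified envelope and lens genes as background 7 did, beside 31.7%. The highest margins were those of the thymocyte chromatin organiser Satb1 at 13.70 ± 0.07, the repressor Cux1 at 10.52 ± 0.13 and Zeb1, needed for T cell development, at 9.68 ± 0.05 (SD, n = 3).

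**Figure D2:**
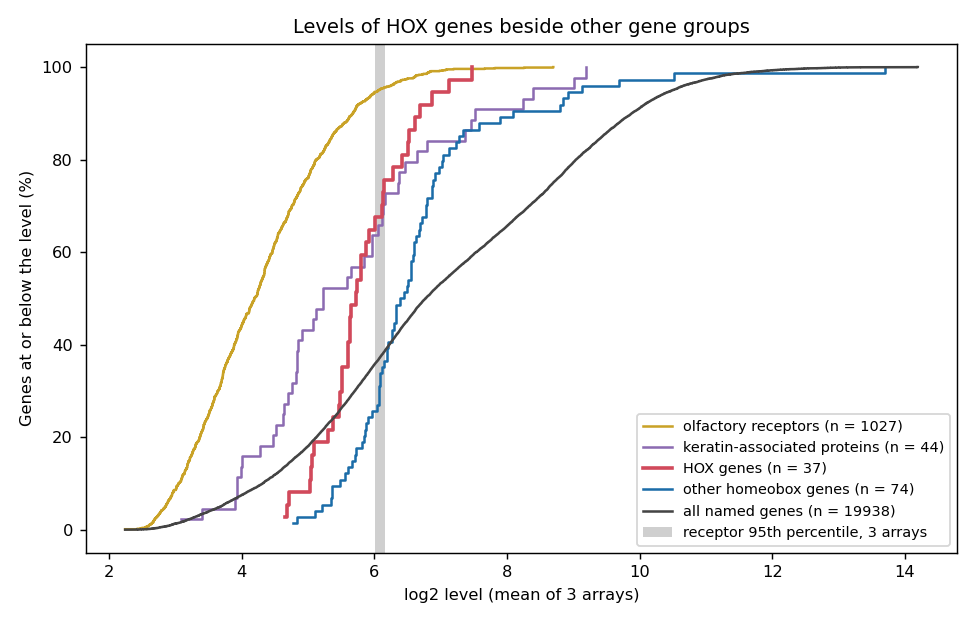
Percent of genes at or below a level (vertical axis) against the log2 level averaged over 3 arrays (horizontal axis) for 5 gene groups, with the receptor 95th percentiles as a grey band. The HOX line lies to the right of the receptor line, crosses the keratin-associated protein line near the grey band and ends at 7.47, whereas other homeobox genes reach 13.70 and all named genes reach 14.19.

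No HOX gene passed the test for a spread between the mice beyond that usual for genes of its level. It was made with limma over 13020 genes above background on at least 1 array, of which 14 were HOX genes. After adjustment 0 of the 14 passed at 0.05, beside 0.23% of all genes tested. Without adjustment 0 of them passed either, beside 4.91%. The smallest adjusted p was 0.997, for Hoxa4, whose unadjusted p was 0.0711. With all named genes tested, and so all 37 HOX genes, limma again called 0, with 1 at an unadjusted p under 0.05, Hoxc5 (adjusted p = 0.993). The SD of HOX genes over the mice ran from 0.02 to 0.36 with a median of 0.15, beside 0.14 for 9044 other genes within the same span of mean levels. No HOX gene differed by 1 or more between any 2 mice. The 30 genes that did vary had ranges of at least 1.45, and the 14 of them at HOX levels of at least 1.47, so the test called no smaller differences. A p that misses the threshold does not show that levels were alike. Each p-value sets a gene's spread over these 3 samples against the usual spread of genes at its level. It does not ask whether levels varied between mice at all, and no mouse had a repeat array.

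**Figure D3:**
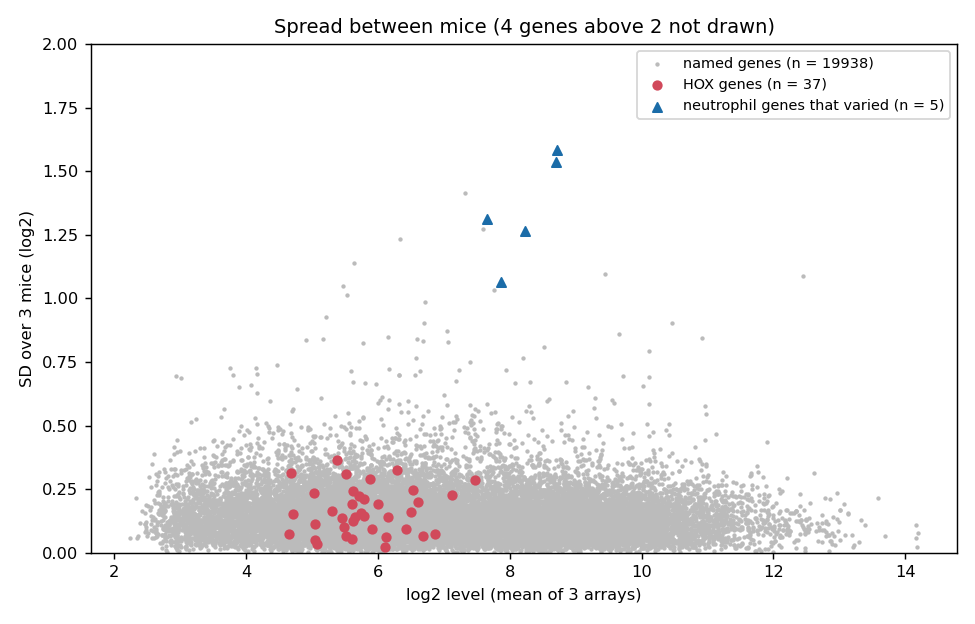
SD over 3 mice (vertical axis, log2) against mean log2 level (horizontal axis) for all named genes in grey, the 37 HOX genes in red and 5 neutrophil genes that varied between mice as blue triangles; 4 genes with an SD above 2 are not drawn. The HOX genes lie within the grey cloud, all at or below 0.36, and the triangles lie above 1.

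The array of mouse 103 gave the highest reading for 24 of the 37 HOX genes (64.9%, beside 45.7% of all named genes). Among genes above background nowhere it was highest for 17 of 23 HOX genes and for 59.1% of all 6918, and its receptor median was also the highest. After the receptor median of each array was subtracted, mouse 103 was highest for 14 HOX genes, mouse 92 for 13 and mouse 106 for 10. No HOX gene had a range as wide as the 5 neutrophil genes that varied. Ngp, a neutrophil granule gene, read 6.88, 9.63 and 9.61 in mice 92, 103 and 106, while the HOX median moved between 5.63 and 5.88. Across the 37 genes, levels in mice 92 and 106 had a Pearson's r of 0.957 and a Spearman's rho of 0.960, in mice 103 and 106 0.940 and 0.917, and in mice 92 and 103 0.915 and 0.875. The points share probes, so r describes the arrays as well as the cells, and for receptor genes r was 0.968 to 0.973.

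The cofactors through which HOX proteins bind DNA were measured for 8 genes, of which 4 were above background, beside 60.3% of all named genes. Pbx2, a PBX partner, read 9.98, 9.79 and 9.94 (mean 9.90 ± 0.10, SD, n = 3), and Pknox1, also called Prep1 and required for thymocyte development, read 9.67, 9.49 and 9.50 (mean 9.55 ± 0.10, SD, n = 3). Both exceeded the threshold by more than 3. Meis3 read 8.26, 7.93 and 7.84, and Pbx4 read 7.02, 6.95 and 6.89. Meis1, the partner of HOXA9 in leukaemia, was below the threshold in each mouse at 5.41, 5.63 and 5.38 (mean 5.47 ± 0.14, SD, n = 3). Meis2 at 5.01, 4.78 and 5.10 and Pknox2 at 5.23, 5.47 and 5.29 were below it too, and Pbx3 passed in mouse 103 alone at 6.005, 6.42 and 6.03. Hoxa9 and Meis1 were thus both below the threshold on all 3 arrays. Of 9 measured genes linked to HOXA9 and MEIS1 in blood cells, 7 were above background (beside 60.3% of all named genes), among them Myb at 12.23 ± 0.07, Cdk6 at 10.12 ± 0.23 (SD, n = 3) and Sox4 at 11.09, 10.92 and 10.99. Erg and Cd34, genes of stem cells, passed on no array.

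Both sets of chromatin regulators of HOX clusters were above background almost throughout. Over all named genes the share above background was 60.3%, to be read beside each count that follows. All 13 measured genes of the MLL group passed, including the methyltransferase gene Kmt2a at 10.90, 10.65 and 11.25 (mean 10.93 ± 0.30, SD, n = 3), Hcfc1 at 10.59 ± 0.10 and Mllt10 at 10.14 ± 0.05. Of 22 Polycomb genes and their antagonists, 21 passed. They included the methyltransferase gene Ezh2 at 11.81 ± 0.01, Suz12 at 10.82 ± 0.18 (SD, n = 3) and Rbbp4 at 11.02, 11.09 and 10.90. Pcgf2, a Polycomb gene whose loss alters vertebral identity, read 5.996, 6.45 and 6.26 and missed the threshold in mouse 92 alone. All 6 genes of chromatin loops and boundaries passed, with Rad21 at 12.10 ± 0.11, Smc3 at 11.26 ± 0.21 and the boundary factor gene Ctcf at 11.21 ± 0.02 (SD, n = 3). Of the ParaHox and EVX genes, relatives of the clusters, 3 of 8 passed. Cdx1, an intestinal activator of HOX genes, read 7.52, 7.79 and 7.72, Evx2 read 6.71, 6.86 and 6.99 and Gsx1 read 6.60, 6.82 and 6.74. Cdx4, which activates HOX genes in blood progenitors, read 3.48, 3.59 and 3.68. With the hair, cornified envelope and lens genes as background, 2 of 8 cofactors and 0 of 8 ParaHox and EVX genes passed, beside 31.7% of all named genes. In limma, 0 genes of these 5 lists passed the test for variation between mice at an adjusted p under 0.05. Among the flanking and noncoding genes described next 0 did, beside 0.23% of all genes tested. At an unadjusted p under 0.05, 1 gene of all these passed, in the MLL group, beside 4.91%.

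**Figure D4:**
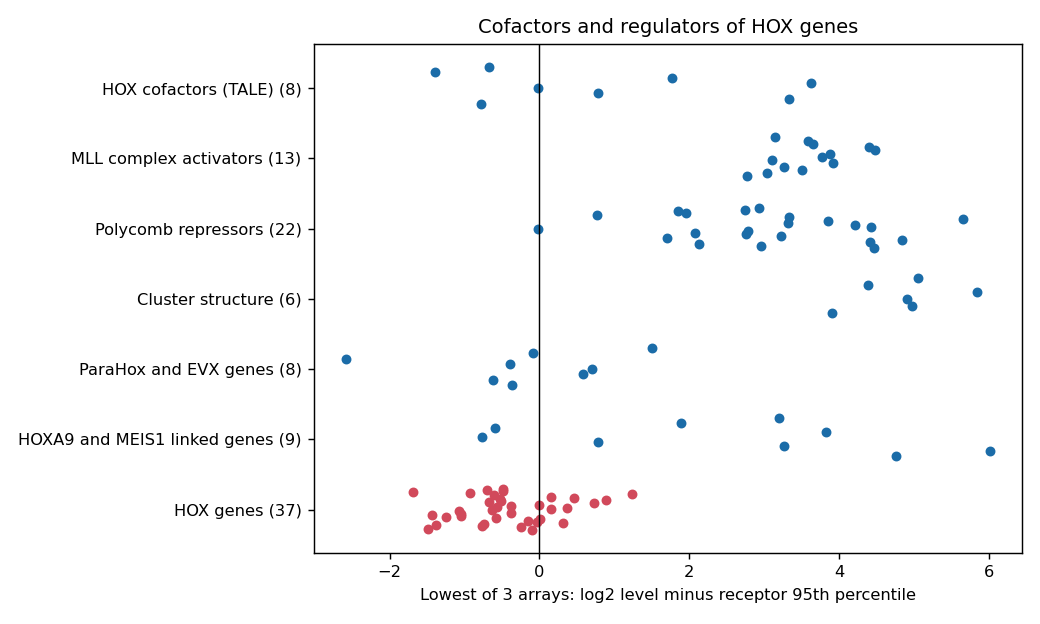
Log2 level minus the receptor 95th percentile on the array where that margin was smallest (horizontal axis) for each measured gene of 6 lists and for the 37 HOX genes, 1 point per gene; the number of genes stands beside each name and vertical spread within a row has no meaning. Points right of 0 were above background on all 3 arrays: all 13 MLL genes and 21 of 22 Polycomb genes, against 9 of 37 HOX genes. Over all named genes the share was 60.3%.

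Early thymic progenitors, cells known to transcribe HOXA genes, were represented by 12 markers, of which 9 were above background on all arrays (beside 60.3% of all named genes), with medians of 6.70, 7.08 and 6.92 in mice 92, 103 and 106. At the 99th percentile 4 of the 12 passed, beside 46.2%, and with hair, cornified envelope and lens genes as background 0 did, beside 31.7%. Lmo2 read 7.32, 8.25 and 8.03, Bcl11a 7.20, 7.53 and 7.49 and Tal1 7.06, 7.16 and 7.13, whereas Cd34 was below the threshold on every array at 5.75, 5.79 and 5.46. Markers of other cells passed in 6 of 12 cases for fibroblasts and endothelium, 7 of 9 for B cells, 8 of 10 for macrophages and dendritic cells and 4 of 6 for erythroid cells, beside 60.3% of all named genes. At the 99th percentile the counts were 4, 3, 5 and 2, beside 46.2%. Their part in the HOX readings was not tested.

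Most genes that flank the clusters were above background. Among the 3 nearest measured protein-coding genes on each side of each cluster, 21 of 24 were above background (87.5%, against 60.3% of all named genes). Immediately beside the group 1 end of cluster B lies Skap1, a T cell receptor adaptor, which read 10.52, 10.82 and 10.63 (mean 10.65 ± 0.15, SD, n = 3), next to Hoxb1. Skap2, its relative beside the same end of cluster A, read 7.37, 7.57 and 7.45 (mean 7.46 ± 0.10, SD, n = 3). At this end cluster D is flanked by Mtx2, a mitochondrial import gene, at 8.57, 8.26 and 8.04, and cluster C by the DNA repair gene Smug1 at 6.71, 6.78 and 6.80. The neighbours next out were Snx10 at 6.36 ± 0.24 (A), Snx11 at 8.24 ± 0.06 (B), Cbx5 at 10.27 ± 0.14 (C) and Nfe2l2 at 8.95 ± 0.03 (D), followed by Cbx3 at 10.77 ± 0.23, Cbx1 at 10.49 ± 0.17, Nfe2 at 6.21 ± 0.12 and Agps at 9.30 ± 0.14 (SD, n = 3). A gene of the heterochromatin protein family, Cbx3, Cbx1 or Cbx5, thus stands near clusters A, B and C.

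The 3 flanking genes below the threshold all lay at the group 13 end, a count with no test. Evx1, beside cluster A, read 5.68, 5.81 and 5.66 and was below the threshold in each mouse, whereas Evx2, beside cluster D, was above it. Beside cluster B, Ttll6, a gene of cilia, read 4.94, 5.21 and 5.30, and Calcoco2, an autophagy receptor gene, 5.20, 5.36 and 5.53, both below the threshold. Calcoco1, beside cluster C, read 9.79, 9.77 and 9.84. The remaining genes on this side all passed: Hibadh at 8.31 ± 0.21 and Tax1bp1 at 11.09 ± 0.13 (A), Atp5g1 at 8.70 ± 0.08 (B), Atp5g2 at 10.65 ± 0.25 and Atf7 at 9.45 ± 0.07 (C), and Lnpk at 8.07 ± 0.21 and Atp5g3 at 11.06 ± 0.06 (D; SD, n = 3).

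**Figure D5:**
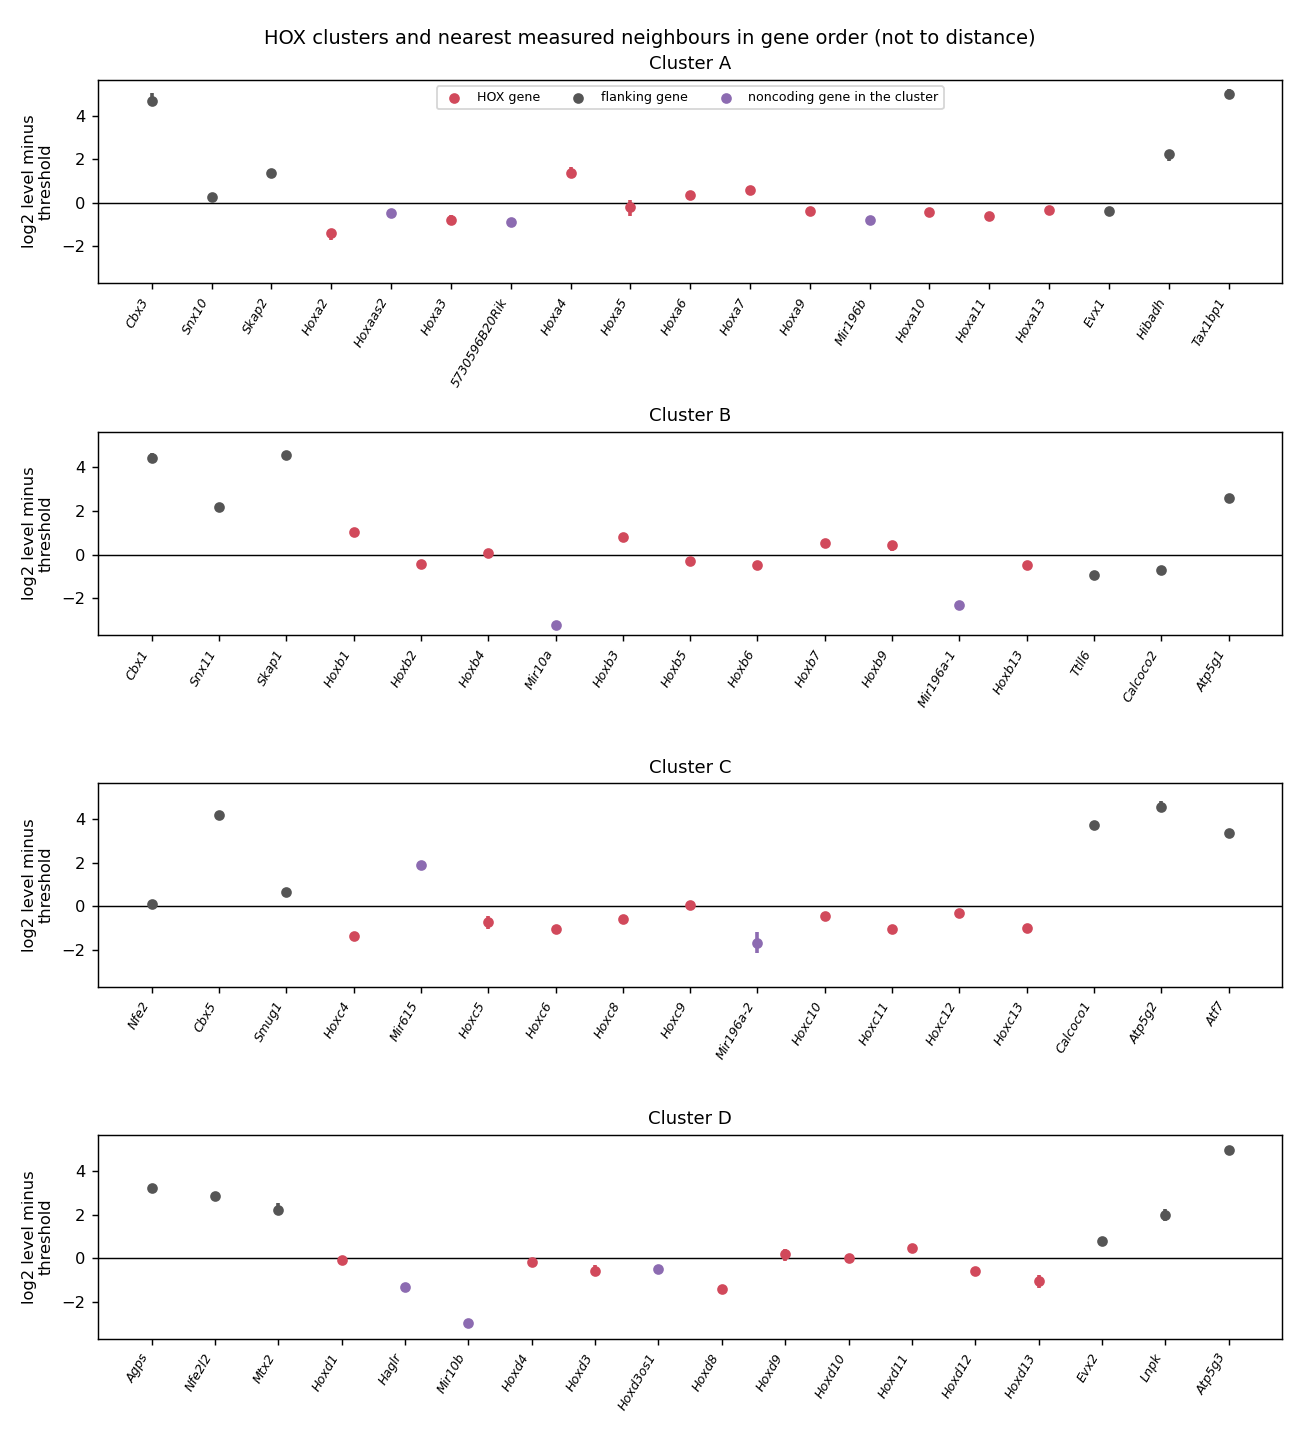
Log2 level minus the receptor 95th percentile (vertical axis; point, mean of 3 arrays; line, lowest to highest array) for the genes of each HOX cluster and the 3 nearest measured protein-coding genes on each side, ordered by start in the RefSeq table with the group 1 end at the left and not spaced by distance; genes with no probe set of their own are not drawn. Most HOX genes lie near or below 0, with Hoxa4 and Hoxb1 the highest at means of 1.39 and 1.05, while 21 of the 24 flanking genes lie above 0, some of them by less than Hoxa4.

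Noncoding genes inside the clusters were below background with a single exception. Of 10 with a probe set of their own, 6 microRNA genes and 4 long noncoding RNA genes, Mir615 was the only one above it. Over all named genes the share was 60.3%. Mir615, which lies within the span of Hoxc5, read 7.88, 8.16 and 7.91 in mice 92, 103 and 106 (mean 7.99 ± 0.15, SD, n = 3), at least 1.85 above the threshold, while Hoxc5 itself was below it in each mouse. With the hair, cornified envelope and lens genes as background, Mir615 was not above it, where 31.7% of all named genes were. Mir10a read 2.90, 2.90 and 2.81 and Mir10b 2.95, 3.22 and 3.12, under the receptor median. Mir196a-1 was also under it at 3.79, 3.69 and 3.86. Mir196a-2 read 4.84, 4.42 and 3.94 and Mir196b 5.17, 5.49 and 5.19, below the threshold. The long noncoding genes Hoxaas2 at 5.62 ± 0.09, Hoxd3os1 at 5.60 ± 0.21, 5730596B20Rik at 5.17 ± 0.15 and Haglr at 4.78 ± 0.30 (SD, n = 3) were below it on every array.

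Of the 11 mature microRNAs of these genes, the 5p arms and both arms of miR-615 are shown because the HOX clusters carry 2 families with a shared seed, the bases that pair with targets, and because the single gene above background belongs to neither. Sequences are from RefSeq on build GRCm38.p6, and capitals mark the seed, bases 2 to 8. The probe sets were matched by gene, and the readings are not taken as levels of the mature forms.
miR-10a-5p: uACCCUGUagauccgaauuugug
miR-10b-5p: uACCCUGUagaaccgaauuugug
miR-196a-5p: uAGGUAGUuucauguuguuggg
miR-196b-5p: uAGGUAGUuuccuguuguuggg
miR-615-3p: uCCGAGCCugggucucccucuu
miR-615-5p: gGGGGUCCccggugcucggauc

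The miR-10 pair, at chr11:96317186-96317208 (plus strand, cluster B) and chr2:74726074-74726096 (plus strand, cluster D), share the seed ACCCUGU and differ at 1 base. The miR-196 forms differ at 1 base as well and share AGGUAGU. miR-196a-5p is encoded at chr11:96265187-96265208 and chr15:102973365-102973386 (plus strand, clusters B and C) and miR-196b-5p at chr6:52230129-52230150 (minus strand, cluster A). The miR-196 family is known to target HOX messages. Both arms of miR-615, at chr15:103014969-103014990 and chr15:103014926-103014947 (plus strand, cluster C), have seeds that no other mature entry of the table carries.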

How the data were processed

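Levels were taken from the deposited table, which holds log2 values for 35557 probe sets on 3 arrays, from 1.76 to 14.96. The authors made them with Affymetrix Expression Console, per the submitters' processing notes; version, background correction, summarisation and normalisation: not given in the sources used here. That the scale is log2 was inferred from the range. Names come from the platform annotation of probe sets: 21789 had 1 symbol, 1621 had several and 12147 had none listed. Probe sets of a gene (more than 1 for 999 genes, none of them HOX genes) were averaged. RefSeq tables of GRCm38.p6 gave gene order and sequences; no build is given for the probes, so gene positions are used only as order.

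Background calls were made in Python 3.11.15. For variation between mice, limma 3.58.1 (R 4.3.3) fitted an intercept, with a trended prior variance, and each gene's variance was set against that prior by an upper-tail F test, Benjamini-Hochberg adjusted over all genes tested. The step was tested on simulated data. Genes named were every HOX gene above background on any array and the 5 nearest below it, all cofactors, flanking and noncoding cluster genes, and of regulator, other homeobox, thymocyte and progenitor lists the 3 with the highest margins; marker genes that varied are named and other marker lists given by counts. Further HOX genes and list genes (Hoxa2, Hoxa3, Hoxa10, Hoxa11, Hoxb2, Hoxb6, Hoxb13, Hoxc4, Hoxc5, Hoxc13, Hoxd8, Hoxd13, Erg, Cd34, Cdx4, Pcgf2 and Xist) were named after their values were seen. The thymic epithelium genes Foxn1, Krt5 and Krt14 were named in the same way. Members and lists were chosen with earlier results of these data known. Alternatives changed the percentile, the background genes, the arrays required, the probe set rule, the normalisation, the prior and the mice included.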

Additional observations from a re-analysis of the deposited data

How the results depend on the processing

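The count of HOX genes above background, 9, depended on where background was set. It was 2 at the 99th percentile of receptor genes (beside 46.2% of all named genes) and 14 at the 90th (beside 68.1%). With hair, cornified envelope and lens genes as background it was 0 (beside 31.7%), and with beta-defensin and taste receptor genes 3 (beside 52.25%). These last 2 backgrounds were chosen after seeing the data. With vomeronasal and trace amine receptors added the count was 11 (beside 61.8%), and with 2 of 3 arrays required 12 (beside 62.8%). It stayed at 9 with probe sets of receptors taken one by one, with the highest probe set of a gene, and after median centring or quantile normalisation. These settings left little room for change. Centring moves a gene and its threshold together, and quantile normalisation keeps the order of probe sets within an array. Each HOX gene has 1 probe set, so the probe set rules could act only through the receptor threshold. Leaving out each mouse in turn gave 9 to 11 (beside 61.1% to 61.2%). Of 140 cofactor, regulator, other homeobox and HOXA9-linked genes, 100 were above background (71.4%, beside 60.3% of all named genes). At the 99th percentile 64 were (45.7%, beside 46.2%), and with hair, cornified envelope and lens genes 50 were (35.7%, beside 31.7%). Under the same 3 settings, 46, 15 and 7 of 74 other homeobox genes passed, and 21, 20 and 17 of 22 Polycomb genes. All 13 MLL genes passed each time. With hair, cornified envelope and lens genes, flanking genes fell to 13, noncoding cluster genes to 0 and all named genes from 12032 to 6319. Hoxa4 and Hoxb1 were above background under 12 of 13 alternatives, Hoxb3 under 11, and Hoxa6, Hoxa7, Hoxb7, Hoxb9, Hoxc9 and Hoxd11 under 10. These tallies do not measure stability, because several alternatives could not remove a call. The 90th percentile, 2 of 3 arrays and leaving out a mouse only loosen the rule, and median centring leaves margins unchanged. At the 99th percentile and with either other background, Hoxa6, Hoxa7, Hoxb7, Hoxb9, Hoxc9 and Hoxd11 all fell short. No HOX gene passed the limma test under any alternative, with 0 or 1 at an unadjusted p under 0.05. The count over all genes went from 30 to 45 with a robust prior and to 19 after quantile normalisation. With a mouse left out it was 47 to 82. Background correction and summarisation could not be varied from processed values. No paired analysis was possible because there was 1 group.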
